A study of Sus scrofa with 18 samples.

Results

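The genes described here are the cytosolic translation factors and the aminoacyl-tRNA synthetases of piglet liver. Members were taken by the gene symbol of the array's annotation. A symbol that starts with EIF or EEF marked an initiation or elongation factor (EIF1AX, EIF1AY and EIF2S3 were left out by the rule), and a synthetase was named by its amino acid letter followed by ARS or ARS2, with EPRS added. The rule found 59 genes among the 6765 named genes of the array, each read from the 1 probe set whose log2 ratio averaged highest over the arrays. They comprised 9 genes whose symbol starts with EIF2 (eIF2, its exchange factor eIF2B, an eIF2 kinase and the separate initiation factors EIF2A and EIF2D), 11 genes whose symbol starts with EIF4, 9 subunits of eIF3, 5 factors of start site choice, subunit joining and elongation on difficult peptides, 6 genes of the elongation group, 13 cytosolic synthetases and 6 mitochondrial synthetases. The 11 EIF4 genes are called the cap-binding genes below by that symbol alone. EEF1AKMT1, a methyltransferase that modifies eEF1A, entered the elongation group through its symbol.

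Translation starts when eIF2 brings the initiator tRNA to the small ribosomal subunit, the eIF4 factors bind the mRNA cap and unwind the leader, and eIF3 holds these parts together. Elongation factor eEF1A then delivers each charged tRNA, which a synthetase has joined to its amino acid. When amino acids run short or unfolded proteins accumulate, phosphorylation of eIF2 lowers general initiation while the mRNA of the transcription factor ATF4 is translated, and several synthetase genes are known targets of ATF4. The liver makes most plasma proteins and clears much of the amino acid load that arrives with a meal.

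Liver RNA of 21-day-old piglets was labelled from 8 ug of total RNA per array and measured on Affymetrix porcine expression arrays. Piglets of both sexes were suckled by the sow, or received a cow's milk formula or a soy formula from day 2 of life. Each of the 6 groups of sex and diet had 3 arrays, each of 1 RNA pool, so that 18 arrays entered in all. The labels do not say how many piglets went into a pool, nor their breed or litters, and p-values therefore measure the spread between pools. The values were linear expression ratios, scaled so that no probe set had a median above 1. The median was 1 (to within 0.002) in 45 of the 59 members and lower in 14. A low median was read as a dim probe set, although the sources do not give the divisor. A ratio compares arrays for the same gene, never one gene with another. Differences below are log2 differences in limma with their standard error (SE), p-values are adjusted over all 23935 probe sets by the Benjamini-Hochberg method, and a gene is called at an adjusted p under 0.05. Where both sexes are given together, the value is the mean of the female and the male difference.

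Female and male arrays stood apart. Bacterial spike controls were 7.17-fold higher on male arrays, the 28S rRNA control had mean ratios of 0.105 to 0.238 in female groups and of 3.05 to 3.9 in male groups, and the GAPDH control's log2 difference of its 3′ and 5′ probe sets was 0.05 to 0.249 in female groups and -0.641 to -0.574 in male groups. Of the members, 53 were higher on female arrays, with a median difference of 0.74 on the log2 scale, and sex and array batch cannot be told apart in it. The median within-group SD of the members was 0.14 on female and 0.31 on male arrays (log2). Some controls also moved with diet. In females 28S rRNA ratios were 0.0773 to 0.155 on soy formula and 0.159 to 0.252 on sow milk. Female spike ratios were 0.257 to 0.277 and 0.300 to 0.353 in the same order. In males the spikes moved the other way, with mean log2 ratios of 1.12 to 1.552 on soy formula and 0.588 to 1.119 on sow milk. Male 28S rRNA ratios overlapped, at 3.66 to 3.88 on soy formula and 1.62 to 4.08 on sow milk. The part of these differences in the results below was not tested, and each diet comparison was made within a sex before averaging. All 11 measured hepatocyte markers had a median ratio of 1.

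In livers of piglets fed milk formula, EIF4A1 and GARS rose against sow-fed piglets, and no member fell. EIF4A1 encodes the helicase of the cap-binding complex and GARS the glycyl-tRNA synthetase, which charges both cytosolic and mitochondrial tRNA. These 2 calls were 3.39% of the 59 members. Over all probe sets 0.455% were called higher, 0.301% lower and 0.756% in either direction, and among named genes with a median ratio of 1 like most members, 2.76% were called higher, so the members' share was near that of these genes. The median difference of the members was 0.16, with 42 of 59 above 0, against medians of 0.0044 over all probe sets and 0.05 over named genes with a median ratio of 1. At an unadjusted p under 0.05, 9 members were higher and 0 lower in limma. Here and below, counts at an unadjusted p are given without the share of all probe sets at that limit. They are not read as a result about the members or lists.

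The EIF4A1 ratios were 0.911, 0.750 and 0.709 in the 3 sow-fed female pools and 1.03, 1.22 and 1.20 in the milk formula female pools. In males they were 0.466, 0.562 and 0.588 on sow milk and 1.91, 0.906 and 1.11 on milk formula. Every formula pool lay above every sow-fed pool of its sex, and the first male formula pool was the highest. The mean difference of both sexes was 0.88 (SE 0.16), a fold of 1.84, with an adjusted p of 0.00958 in limma. Under 26 alternative settings and left-out arrays the EIF4A1 call held in 26, with adjusted p from 0.00327 to 0.0394.

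GARS ratios on sow milk were 1.06, 0.995 and 1.005 in females and 0.660, 0.488 and 0.423 in males. On milk formula they were 1.33, 1.68 and 1.70 in females and 0.650, 0.698 and 0.869 in males. The female groups did not overlap, while the lowest male formula pool lay just under the highest male sow-fed pool. The difference was 0.56 (SE 0.13, adjusted p = 0.0416, limma), and it was past the threshold in 9 of 26 alternatives. It was lost when any of 12 of the 18 arrays was left out, namely all 3 sow-fed and all 3 soy formula female pools, female milk formula pools 2 and 3, male milk formula pools 2 and 3 and male sow-fed pools 2 and 3, with adjusted p up to 0.14. The mean of the 3 GARS probe sets gave 0.34 (adjusted p = 0.184, limma).

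**Figure D1:**
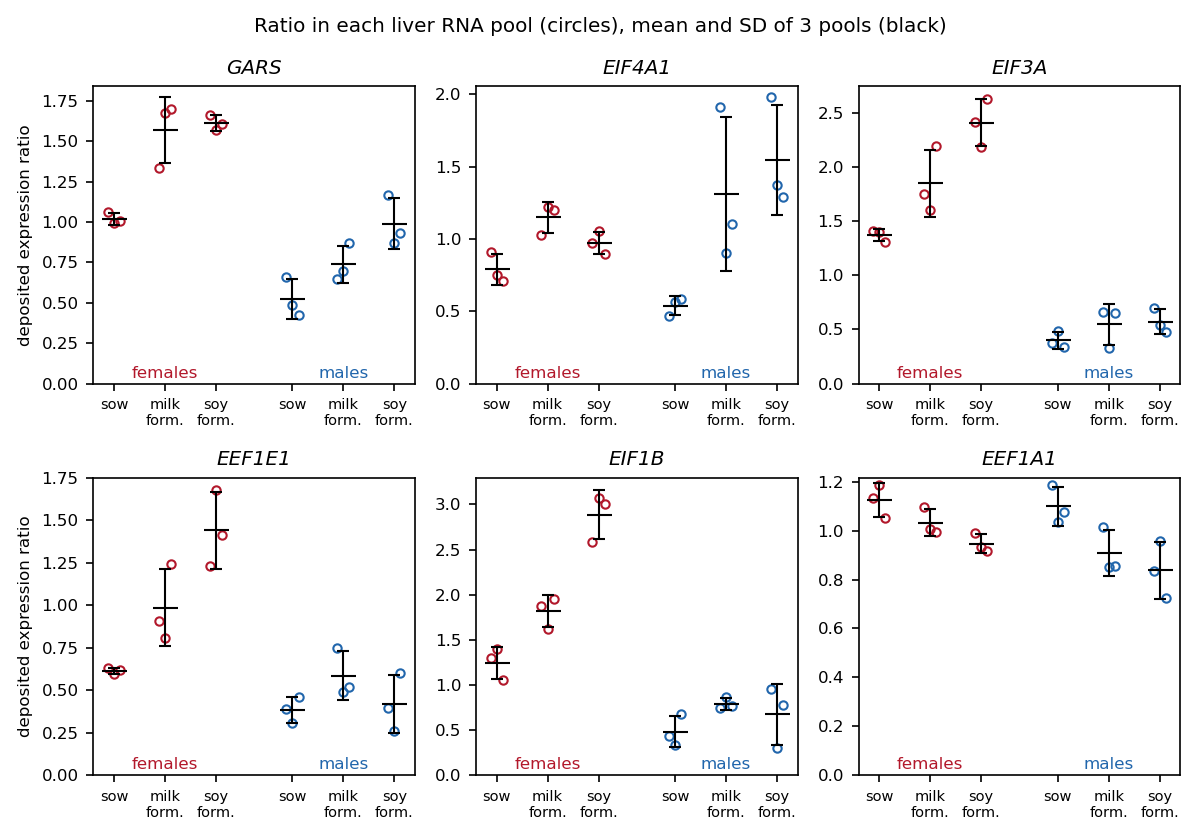
Deposited expression ratio (vertical axis, linear, no unit) of GARS, EIF4A1, EIF3A, EEF1E1, EIF1B and EEF1A1 in each of the 18 liver RNA pools (circles, red female, blue male), with the mean and SD of 3 pools in black. GARS pools on soy formula lie above sow-fed pools in both sexes, female soy pools of EEF1E1 and EIF1B lie above female sow-fed pools while the male soy and sow pools overlap, and EEF1A1 on soy lies below sow milk in both sexes.

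The start site factors EIF1 and EIF1B are close paralogs that help the scanning ribosome to reject wrong start codons. EIF1 ratios were 0.929, 0.991 and 0.856 in sow-fed and 1.16, 1.43 and 1.77 in milk formula females, and 0.847, 0.751 and 0.910 against 1.24, 0.991 and 0.983 in males. The groups of EIF1 did not overlap in either sex, with a difference of 0.49 (SE 0.12, adjusted p = 0.0785, limma), and a further EIF1 probe set gave 0.36 (SE 0.10). EIF1B stood at 0.66 (SE 0.22, adjusted p = 0.252) and EEF1E1, a scaffold protein of the multisynthetase complex that is related to the eEF1 subunits, at 0.63 (SE 0.18, adjusted p = 0.155). EIF4E, the cap-binding protein, stood at 0.42 (SE 0.11, adjusted p = 0.0962). Without female milk formula pool 1, EIF1 was called, and without male soy formula pool 2, EIF1B was.

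Counted without a model, 5 members (EEF1E1, EIF1, EIF1B, EIF3D and EIF4A1) had every milk formula pool above every sow-fed pool in both sexes, where 0.982% of all probe sets did. None lay wholly below, where 0.731% of all probe sets did. For counts of pools that did not overlap, here and below, no share of named genes with a median ratio of 1 is given. Such genes, like most members, were called more often in limma than all probe sets. EIF3D, an eIF3 subunit that can itself bind the cap of some mRNAs, had a difference of 0.27 (SE 0.16, adjusted p = 0.671), and its other probe set (median ratio 0.162) gave -0.35 (SE 0.12). Of the 9 eIF3 genes 8 had positive differences (median 0.20), of the 13 cytosolic synthetases 10 (median 0.16), of the 11 cap-binding genes 8 (median 0.10) and of the 9 eIF2 genes 5 (median 0.16). The lowest values were -0.23 for EIF4G3, a scaffold of the cap complex (SE 0.11), -0.21 for EIF2AK2, the eIF2 kinase activated by double-stranded RNA (SE 0.24), and -0.20 for EEF1A1 (SE 0.10), with adjusted p of 0.536 to 0.879 in limma.

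**Figure D2:**
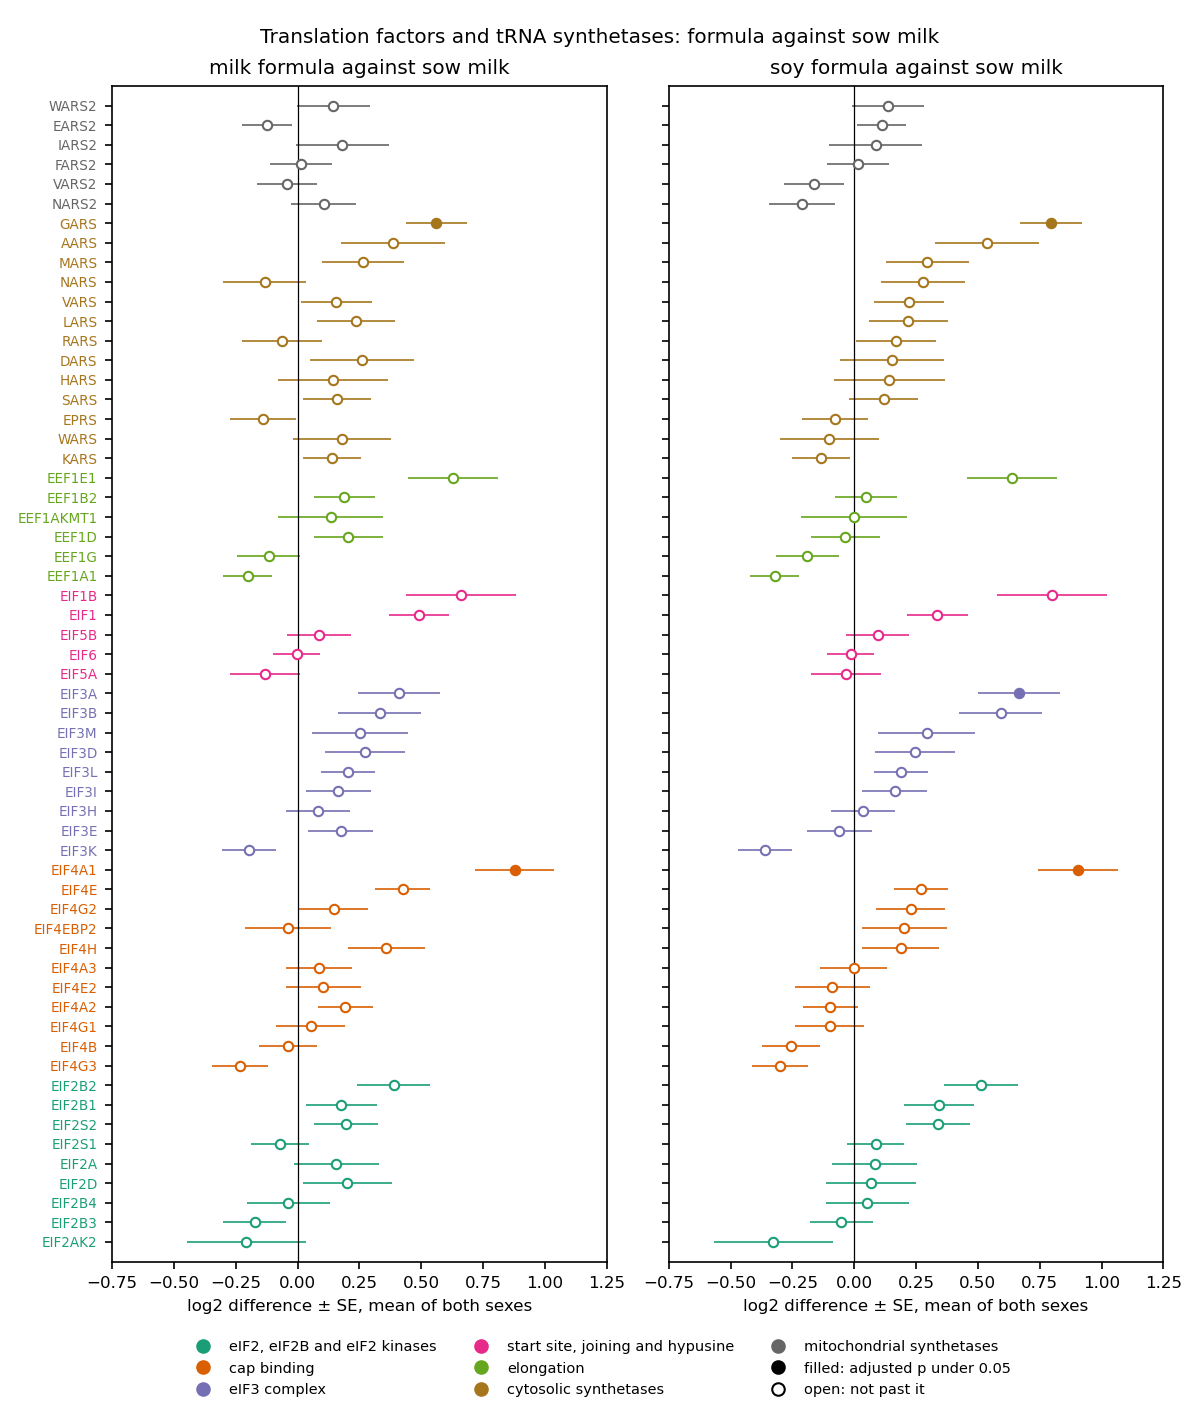
Log2 difference (horizontal axis, mean of both sexes) with its SE for all 59 members, milk formula against sow milk on the left and soy formula against sow milk on the right, coloured by role. Filled points passed an adjusted p of 0.05, which are EIF4A1 and GARS on the left and EIF4A1, GARS and EIF3A on the right.

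On soy formula EIF4A1, GARS and EIF3A rose against sow milk, and no member fell past the threshold. Under quantile normalization 2 members were called higher (EIF4A1 and GARS) and 2 lower (EIF3K and EIF4G3, at -0.36 and -0.30 as reported). EIF3A is the largest subunit and core scaffold of eIF3. The 3 calls were 5.08% of the members, beside 3.28% of all probe sets called in either direction, 1.52% called higher and 1.75% lower, and 6.13% called higher among named genes with a median ratio of 1. The members' median difference was 0.09, with 38 above 0 and 21 below, and at an unadjusted p under 0.05 limma gave 12 higher and 4 lower. This comparison uses the same sow-fed arrays as the one before it, so the values of both are given side by side without reading one as support of the other.

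GARS ratios on soy formula were 1.67, 1.57 and 1.60 in females and 1.17, 0.869 and 0.932 in males. All 6 pools lay above the sow-fed pools of their sex given earlier. The difference was 0.80 (SE 0.13, fold 1.74, adjusted p = 9.68e-04, limma), and it was past the threshold in 26 of 26 alternatives. The other GARS probe sets gave 0.67 (SE 0.19, adjusted p = 0.06) and 0.23 (SE 0.15, adjusted p = 0.554).

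EIF4A1 ratios on soy formula were 0.973, 1.05 and 0.898 in females and 1.98, 1.37 and 1.29 in males. The male groups stood far apart, whereas the lowest female soy pool lay just under the highest female sow-fed pool. The difference over both sexes was 0.90 (SE 0.16, adjusted p = 0.00277, limma), made of 0.31 in females and 1.501 in males. The test of that inequality (female minus male, -1.19, SE 0.32) had an adjusted p of 0.298. The paralog EIF4A2 stood at -0.10 (SE 0.11, adjusted p = 0.785).

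EIF3A ratios on sow milk were 1.41, 1.40 and 1.30 in females and 0.374, 0.485 and 0.333 in males, and on soy formula 2.42, 2.19 and 2.63 in females and 0.696, 0.540 and 0.475 in males. The female groups were well apart, while the lowest male soy pool lay under the highest sow-fed pool. The difference was 0.67 (SE 0.17, fold 1.59, adjusted p = 0.0318, limma), past the threshold in 15 of 26 alternatives. It was lost without any of the female sow-fed or female soy formula pools, without male sow-fed pools 1 and 3 or male soy formula pool 1, under quantile normalization and with the pool number as a block, with adjusted p up to 0.0893. EIF3B, the eIF3 subunit that forms the core with EIF3A, stood at 0.59 (SE 0.17, adjusted p = 0.0654), and EIF3K, a small accessory subunit, at -0.36 (SE 0.11, adjusted p = 0.0835). Of the 9 eIF3 genes 7 were above 0 (median 0.19).

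Among the eIF2 genes, EIF2B2, the beta subunit of the exchange factor that recharges eIF2 with GTP, had 0.51 (SE 0.15, adjusted p = 0.0688). EIF2S1, the subunit that carries the regulatory phosphorylation site, had 0.09 (SE 0.12, adjusted p = 0.824), and EIF2S2, the beta subunit, had 0.34 (SE 0.13, adjusted p = 0.205). EIF2AK2 stood at -0.33 (SE 0.24, adjusted p = 0.613), and of its sow-fed female pools, at 1.45, 1.31 and 3.37, the third lay far above the others. EIF2AK3, EIF2AK4 and EIF2B5 are not analysed here.

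The other fixed members of the cap, start site and synthetase groups were not called. EIF4E (median ratio 0.242) stood at 0.27 (SE 0.11, adjusted p = 0.241). EIF4EBP2, which holds EIF4E inactive, stood at 0.20 and EIF4G1, the main scaffold of the cap complex, at -0.10. EIF5A, which carries the hypusine residue, was at -0.03, while its second probe set (median ratio 1) stood at -1.07 in females (adjusted p = 0.0312 in females alone, limma) and 0.82 in males. EIF6, which keeps free large subunits apart, stood at -0.01. Among synthetases AARS stood at 0.54 (SE 0.21, adjusted p = 0.219), SARS at 0.12, EPRS at -0.08 and WARS at -0.10. AARS was called in 1 of 26 alternatives, without male sow-fed pool 1, whose ratio was 1.05 against 0.417 and 0.424 in the other sow-fed male pools. A second AARS probe set (median ratio 0.396) gave 0.14 (SE 0.27). For SARS a second probe set (median ratio 0.999) gave 0.40 (SE 0.21). The cytosolic synthetases had a median of 0.17, with 10 of 13 above 0, and the mitochondrial synthetases a median of 0.05, with 4 of 6 above 0.

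EEF1A1, the tRNA-delivering elongation factor, took the opposite order. Its ratios were 1.13, 1.19 and 1.05 on sow milk, 1.10, 1.01 and 0.994 on milk formula and 0.990, 0.933 and 0.918 on soy formula in females. In males they were 1.19, 1.03 and 1.07 on sow milk, 1.02, 0.853 and 0.856 on milk formula and 0.833, 0.957 and 0.725 on soy formula. Soy formula pools lay below sow-fed pools in both sexes, as in 1.73% of all probe sets. The difference was -0.32 (SE 0.10, adjusted p = 0.092, limma), and the other 2 probe sets of the gene gave -0.10 and 0.18, so its size rests on 1 probe set. The array's middle EF1A control probe set, kept out of the tests, had mean log2 ratios of 0.16, 0.279 and 0.263 on sow milk, milk formula and soy formula in females and of -0.595, -0.304 and -0.373 in males, with sow milk lowest in both sexes, where the probe set used had it highest. Whether these probes also read near-identical copies of the gene is not known from the files.

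In females fitted alone, more members were called than in the fit of both sexes for soy formula against either other diet. For milk formula against sow milk fewer were called in females alone. On soy formula 10 members were called higher than on sow milk (EEF1E1, EIF1B, EIF2B2, EIF2S2, EIF3A, EIF3B, EIF5B, GARS, NARS and RARS) and 1 lower (EIF3K). That is 16.9% of members higher and 1.69% lower, beside 3.6% and 3.06% of all probe sets (6.66% together) and 8.71% and 9.31% of named genes with a median ratio of 1. Of these 11 calls, 6 (EEF1E1, EIF1B, EIF2S2, EIF3A, GARS and NARS) were kept in every fit that left out 1 female array. The count ran from 7 without female soy formula pool 2 to 13 without female milk formula pool 3. In the fit to all 18 arrays, which gives both sexes 1 common spread, EEF1E1 was the only female call.

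EIF1B ratios in females were 1.29, 1.40 and 1.05 on sow milk, 1.87, 1.61 and 1.95 on milk formula and 2.58, 3.08 and 3.005 on soy formula. No pool of one diet overlapped another. In females alone EIF1B differed by 1.22 (SE 0.13, fold 2.33, adjusted p = 5.91e-04, limma) between soy formula and sow milk and by 0.67 (SE 0.13, adjusted p = 0.0262) between soy and milk formula. The call between the formulas was lost in 4 of 9 fits that left out a female array (milk formula pools 1 and 2, soy formula pools 2 and 3), under quantile normalization, with the pool number as a block and in the fit to all 18 arrays. In males the ratios were 0.436, 0.335 and 0.672 on sow milk and 0.951, 0.296 and 0.772 on soy formula, a difference of 0.38 (SE 0.38, adjusted p = 0.896). The difference between the sexes was 0.84 (SE 0.44, adjusted p = 0.681), and over both sexes EIF1B stood at 0.80 (SE 0.22, adjusted p = 0.0563).

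EEF1E1 ratios in females were 0.628, 0.596 and 0.617 on sow milk, 0.905, 0.809 and 1.24 on milk formula and 1.23, 1.68 and 1.42 on soy formula. Both formulas lay above sow milk, and the highest milk formula pool overlapped the lowest soy formula pool. Soy formula differed from sow milk by 1.22 (SE 0.16, fold 2.33, adjusted p = 0.00213, limma, females alone). Male ratios of 0.390, 0.306 and 0.459 on sow milk and 0.396, 0.259 and 0.601 on soy formula overlapped, with a difference of 0.06 (SE 0.31). The female minus male difference for EEF1E1 was 1.16 (SE 0.36, adjusted p = 0.39). A second EEF1E1 probe set (median ratio 0.253) gave 0.90 in females and 0.50 in males, and it was called over both sexes (0.70, SE 0.16, adjusted p = 0.0173).

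NARS, the asparaginyl-tRNA synthetase, separated soy formula from both other diets in females. Its female ratios were 1.29, 1.40 and 1.40 on sow milk, 1.44, 1.56 and 1.64 on milk formula and 2.47, 1.96 and 2.03 on soy formula. In females alone NARS on soy formula was 0.65 above sow milk (SE 0.10, adjusted p = 0.00542, limma) and 0.47 above milk formula (SE 0.10, adjusted p = 0.0453). The latter call was lost in each of the 9 fits that left out a female array, with trended variances, under quantile normalization, with the pool number as a block and in the fit to all 18 arrays. Male NARS on soy formula, at 0.493, 0.514 and 0.599, lay within the sow-fed range of 0.476 to 0.707. NARS and EIF1B were the 2 members called between the formulas in females alone, where 2.25% of all probe sets were called, and 0 members were called there without milk formula pool 1 or 2 or soy formula pool 2 or 3.

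Smaller female differences on soy formula were 0.57 for EIF2B2 (adjusted p = 0.0139), 0.54 for EIF2S2 (0.00818), 0.50 for EIF3B (0.0442) and 0.38 for RARS, the arginyl-tRNA synthetase (0.0482), all adjusted p in limma. EIF2S2 ratios in females were 1.20, 1.10 and 1.10 on sow milk and 1.62, 1.69 and 1.63 on soy formula, clearly apart with a narrow spread. EIF3K ratios in females fell from 1.57, 1.54 and 1.55 on sow milk to 1.24, 1.20 and 1.08 on soy formula, a difference of -0.41 (SE 0.08, adjusted p = 0.0139). EIF5B, the GTPase of subunit joining, differed by 0.49 (SE 0.10, adjusted p = 0.0201) in females, but its 3 sow-fed female pools all held the ratio 0.817. Of 9022 probe sets with a mean ratio above 0.5 in that group, this was the 1 that held the same value in all 3 pools, and EIF5B was kept in 4 of 9 fits that left out a female array. RARS was kept in 1 and EIF3B in 2 of those 9 fits. The other EIF5B probe sets (median ratios 0.184 and 0.15) were not called. They gave 0.25 and 0.02 in females (adjusted p = 0.163 and 0.935 in females alone, limma).

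On milk formula the female fit called GARS alone among the members (0.61, SE 0.10, adjusted p = 0.0276, limma), where 0.74% of all probe sets were called. That call was lost in 5 of 9 fits that left out a female array (all sow-fed pools, milk formula pools 2 and 3), with the pool number as a block and in the fit to all 18 arrays. EIF4A1 in females had 0.55 (SE 0.12, adjusted p = 0.0748). Counted by pools that did not overlap, 17 members lay wholly above sow milk on milk formula in females (6.44% of all probe sets did) and 3 wholly below (7.9%). On soy formula 20 members lay wholly above in females (12.3% of all probe sets) and 4 wholly below (12.8%). These shares are not those of genes with a median ratio of 1 like most members.

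In males fitted alone no member was called in any diet comparison in limma. At an unadjusted p under 0.05 there were 2 higher and 1 lower for milk formula against sow milk, 3 higher and 1 lower for soy formula against sow milk, and 0 higher and 2 lower between the formulas. Over all probe sets the male fits called 0.0961%, 0.284% and 0%. EIF4A1 on soy formula came nearest, at 1.501 (SE 0.29, fold 2.83, adjusted p = 0.0503), and GARS stood at 0.93 (SE 0.24, adjusted p = 0.204). Members varied more on male arrays, with a median within-group SD of 0.31 against 0.14 on female arrays (log2). In the fit of both sexes together, with 1 common spread, males had 2 calls on milk formula against sow milk (EIF4A1 and EIF4E, both higher). On soy formula males had 3 calls there, with EIF4A1 and GARS higher and EIF4G3 lower. Females had 0 and 1 in the same order. The counts of the separate fits are therefore not read as a difference between the sexes. On soy formula 3 members lay wholly above sow milk in males (EIF1, EIF4A1 and GARS, where 5.81% of all probe sets did) and 5 wholly below (EEF1A1, EIF4A2, EIF4G1, EIF4G3 and NARS2, where 6.16% did).

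EIF4G3, a paralog of the scaffold EIF4G1, had differences of opposite sign in the sexes. Its ratios in males were 0.878, 0.753 and 0.708 on sow milk, 0.482, 0.524 and 0.453 on milk formula and 0.447, 0.372 and 0.391 on soy formula. In females they were 0.732, 1.02 and 0.827 on sow milk, 1.11, 0.974 and 0.886 on milk formula and 1.05, 0.981 and 1.24 on soy formula. All male formula pools lay below all male sow-fed pools, whereas the female groups overlapped. On soy formula EIF4G3 differed from sow milk by -0.95 in males (SE 0.21, adjusted p = 0.101) and by 0.35 in females (SE 0.14, adjusted p = 0.186), each fitted alone. The test of the difference between the sexes gave 1.30 (SE 0.23, unadjusted p 1.85e-05 in limma) and an adjusted p of 0.0553, just short of the threshold. EIF4G3 was called without male soy formula pool 1, without female sow-fed pool 2 and under quantile normalization. Across the members 0 were called for a sex by diet difference in any of the 3 diet comparisons, where 0.00418%, 0.0125% and 0% of all probe sets were, and at an unadjusted p under 0.05 limma gave 1 higher and 2 lower, 5 higher and 2 lower, and 4 higher and 1 lower.

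EIF4E had another pattern in males. Its ratios there were 0.173, 0.181 and 0.186 on sow milk, 0.282, 0.315 and 0.324 on milk formula and 0.189, 0.221 and 0.175 on soy formula. Among the male groups only milk formula stood apart. In females the ratios were 0.205, 0.252 and 0.238, then 0.246, 0.217 and 0.273, then 0.350, 0.334 and 0.259, in the same order of diets. The female soy formula pools lay wholly above the female sow-fed pools, as in 12.3% of all probe sets, and overlapped the milk formula pools. Between the formulas the female minus male difference of EIF4E was 1.01 (SE 0.22, adjusted p = 0.25, limma).

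**Figure D3:**
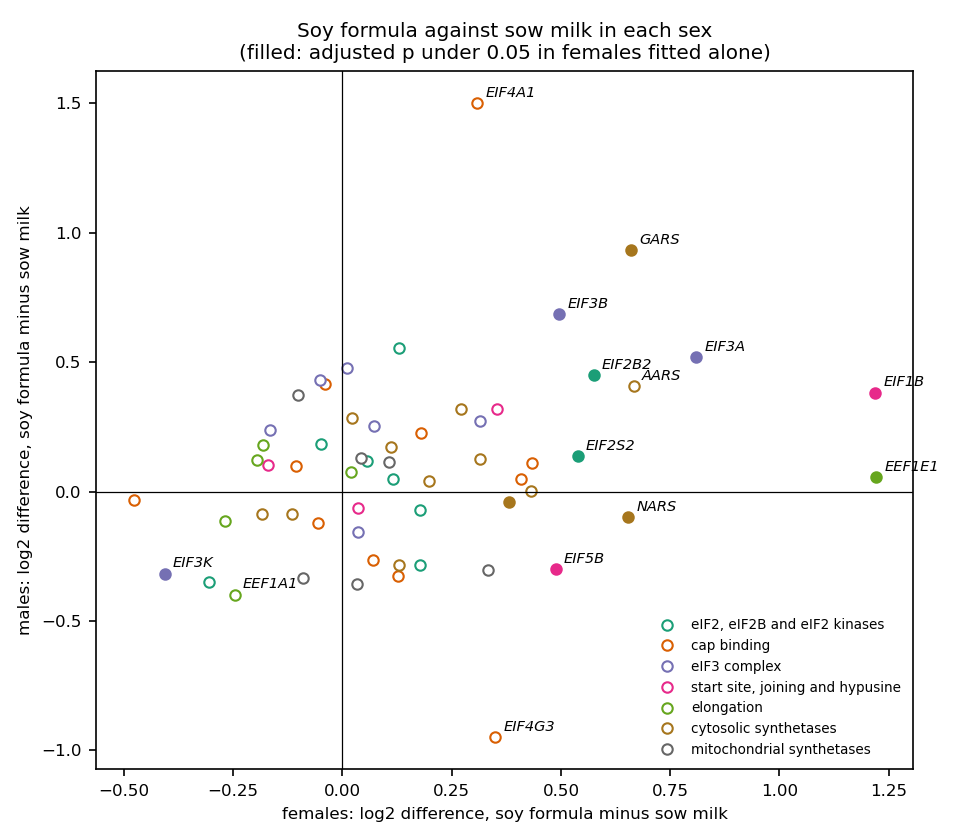
Log2 difference between soy formula and sow milk in females (horizontal axis) and in males (vertical axis) for the 59 members, coloured by role. Filled points were called in females fitted alone. EIF4G3 lies at 0.35 in females and -0.95 in males, and EIF4A1 at 0.31 and 1.501.

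Female and male differences come from separate arrays. They had the same sign in 46 of 59 members (78%) for milk formula against sow milk, in 37 (62.7%) for soy formula against sow milk and in 33 (55.9%) between the formulas. The same shares over all named genes were 57.1%, 58.5% and 54.7%. As a description over genes, which share arrays and are not independent, Pearson's r between the sexes was 0.481, 0.278 and -0.103 over the members and 0.404, 0.512 and 0.279 over all named genes.

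Between soy and milk formula 0 of the 59 members were called over both sexes in limma, where 0.66% of all probe sets were, and 2 were higher and 3 lower at an unadjusted p under 0.05. The median difference was -0.01. NARS was highest at 0.41 (SE 0.17, adjusted p = 0.367), followed by EIF3B at 0.26 (SE 0.17) and EIF3A at 0.25 (SE 0.17). NARS2, the mitochondrial asparaginyl-tRNA synthetase (median ratio 0.173), was lowest at -0.32 (SE 0.13, adjusted p = 0.373), followed by EIF4A2 at -0.29 (SE 0.11, adjusted p = 0.317) and WARS at -0.28 (SE 0.20). WARS on soy formula in males ran from 0.476 to 1.502, the widest spread of its groups. GARS differed by 0.23 (SE 0.13, adjusted p = 0.545).

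Probe sets of the same gene did not always move together. Of the members, 37 had 1 probe set and 22 had more, which gave 31 other probe sets beside those used. They had the sign of the probe set used in 18 of 31 cases for milk formula against sow milk, in 20 for soy formula against sow milk and in 17 between the formulas. EIF1, EEF1E1 and GARS had 1 sign in all probe sets in both comparisons with sow milk, whereas WARS (-0.10, with others at 0.33 and 0.10) and EIF4G1 (-0.10, with another at 0.31) did not on soy formula. EIF4A1 and EIF3A had 1 probe set each, so no such check was possible for them.

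**Figure D4:**
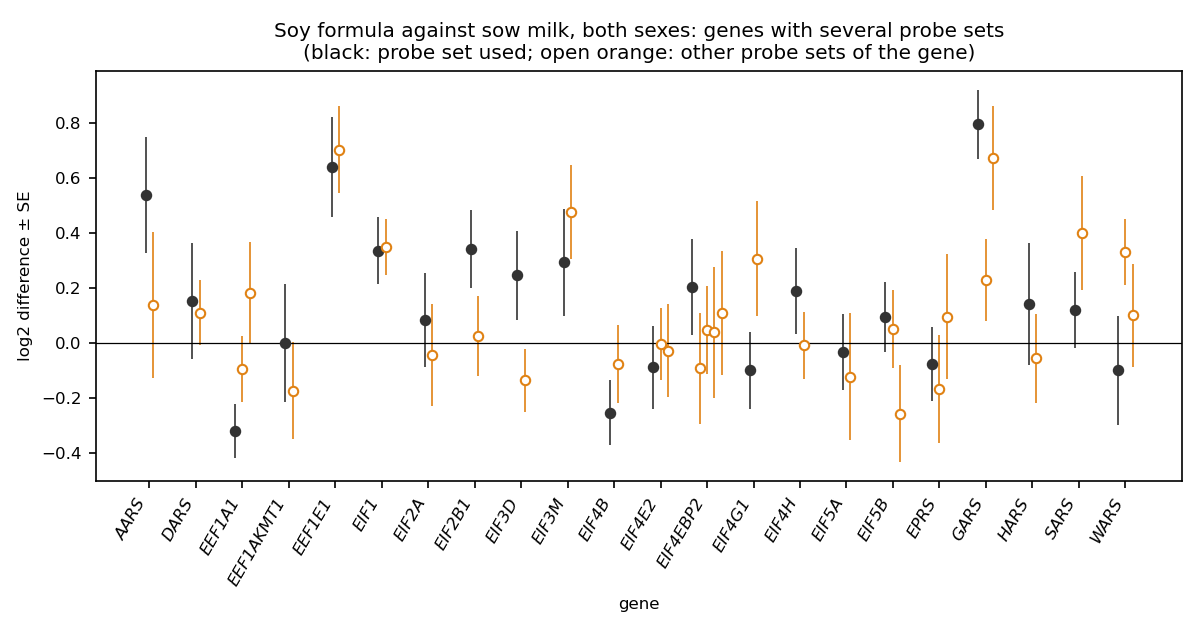
Log2 difference between soy formula and sow milk over both sexes (vertical axis, with SE) for the 22 members with several probe sets. Black points are the probe sets used and open orange points the others, and GARS and EEF1E1 have every probe set above 0.

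Genes around the members were taken from lists of related pathways. Of the targets of ATF4 and the amino acid response, 17 of 28 listed were measured. On soy formula against sow milk 3 rose and 1 fell, beside 1.52% and 1.75% of all probe sets. Those that rose were ASNS, asparagine synthetase (1.24, SE 0.28, adjusted p = 0.0172), PSPH (0.77, SE 0.17, adjusted p = 0.0138) and PSAT1 (0.69, SE 0.15, adjusted p = 0.0104), both of serine synthesis. The transcription factor CEBPB fell by 0.70 (SE 0.14, adjusted p = 0.00737, limma). None of the 17 passed on milk formula against sow milk in limma (6 higher and 3 lower at an unadjusted p under 0.05), and between the formulas CTH, of cysteine synthesis, was higher on soy (1.12, SE 0.23, adjusted p = 0.0283). The list's medians were 0.09, 0.16 and 0.07 in those comparisons.

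Of 12 measured genes of the mTOR pathway, 16 other cytosolic translation factors and 8 mitochondrial translation factors, 0 were called over both sexes in any comparison in limma. At an unadjusted p under 0.05 on soy formula against sow milk these lists had 1 higher and 0 lower, 4 higher and 2 lower, and 3 higher and 0 lower, and on milk formula 0 and 0, 4 higher and 1 lower, and 0 and 0. Median differences of the other cytosolic translation factors were 0.18 on both formulas against sow milk, with 13 and 12 of 16 above 0. The fit of females alone called 3.6% of all probe sets higher and 3.06% lower on soy formula against sow milk. On milk formula it called 0.338% higher and 0.401% lower. The genes of these lists named from that fit were picked among its calls, and no count of all called higher or lower is given. They do not show how a list moved as a whole. AIMP2, a scaffold of the multisynthetase complex, was higher in females on soy formula (0.58, adjusted p = 0.00283, limma) and on milk formula (0.45, adjusted p = 0.033). AIMP1 (0.39, adjusted p = 0.0235, limma) and FARSA (0.46, adjusted p = 0.03), a phenylalanyl-tRNA synthetase subunit, were higher in females on soy formula. GFM1, a mitochondrial elongation factor, was higher on soy formula in females (0.70, adjusted p = 0.00796), and RHEB, the GTPase that activates mTOR, likewise (0.55, adjusted p = 0.00618). Of 15 genes of the unfolded protein response of the endoplasmic reticulum, CANX alone was called, lower on soy formula (-0.43, SE 0.11, adjusted p = 0.029).

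Some cell type markers were called on soy formula as well. Against sow milk 1.75% of all probe sets were called lower and 1.52% higher on soy formula, and 0.301% and 0.455% on milk formula. Among named genes with a median ratio of 1, 5.53% were called lower and 6.13% higher on soy formula. Of 7 macrophage markers 4 fell against sow milk and 0 rose (median -0.66), and the mean ratio over the list was 0.835 to 1.08 on soy formula against 1.42 to 1.73 on sow milk in females, and 0.553 to 0.680 against 0.724 to 0.926 in males. Of 7 endothelial markers 2 fell (median -0.47). Of 11 hepatocyte markers 1 rose and 1 fell on each formula, with HNF4A the one that rose on both, and their mean ratio ran from 1.34 to 1.43 on soy formula and from 1.35 to 1.52 on sow milk in females, while on milk formula it was 1.177 to 1.251, wholly below sow milk. Erythroid markers were 0 of 4 called, T or NK cell markers 0 of 7, B or plasma cell markers 0 of 2, cholangiocyte markers 0 of 5 and neutrophil markers 0 of 5 in the comparisons with sow milk in limma. The erythroid mean ratio on milk formula still lay wholly above sow milk in both sexes. In females it was 0.7205 to 3.216 against 0.3405 to 0.6002, and in males 0.5788 to 0.5875 against 0.4125 to 0.5178. On soy formula it was 0.5828 to 1.963 in females and 0.4802 to 0.755 in males, overlapping sow milk. At an unadjusted p under 0.05 on soy formula, 2 erythroid markers were higher and 1 neutrophil marker lower, and on milk formula 3 erythroid and 2 cholangiocyte markers were higher and 1 cholangiocyte marker lower. Beyond these, RGS5 of 6 stellate cell markers fell on both formulas and RRM2 of 7 proliferation markers on soy formula. The stellate list as a whole did not follow RGS5 in males. Its male mean ratio was 0.956 to 1.109 on milk formula, wholly above 0.8005 to 0.9448 on sow milk. On soy formula it was 0.86 to 0.9078 in males. In females it was 0.9357 to 1.142 on sow milk, 0.8673 to 0.943 on milk formula and 0.822 to 0.8443 on soy formula. In bulk liver, fewer cells of a type and less RNA per cell cannot be told apart, and the part of these markers in the members' differences was not tested.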

How the data were processed

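The deposited table holds 1 linear ratio for each probe set on each array. GCOS and RMA are named in the submitters' processing notes, without versions, and no source used here gives the divisor of the ratio or the annotation build. A divisor that all arrays share cancels between them, but that they share it is not stated. All 18 columns were matched to samples (0 unmatched). Of 24123 probe sets 188 controls were set aside. The ratios were log2-transformed and fitted with 1 mean per group in limma 3.58.1 (R 4.3.3, prior degrees of freedom 6.18). Sexes were also fitted alone, on 9 arrays each. P-values were adjusted per comparison over 23935 probe sets (threshold 0.05). No pairing by pool number was seen (median correlation of deviations -0.0085 over 18 pairs, 1 over 0.1, range -0.125 to 0.177). The labels do not say whether pools of the same number are related.

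The members and lists were chosen with earlier results of these data known. Genes named with values are all members called over both sexes, the 3 highest and 3 lowest per comparison and members with the largest sex differences. A fixed list of factors and up to 4 called genes per related list are also named. Members of the female fits or with non-overlapping pools, and the list genes named from the female fit, were added after their values were seen. Symbols matched the gene reference by ID for 58 of 59 members. The 2 probe sets of EIF4EBP3 name 2 genes each and were left out. No sequence is shown. The alternatives were trended variances, quantile normalization, median centring, array weights, the pool number as a block, a filter on the dimmest 40%, a 1.5-fold limit, fits to only the diets compared, the mean of all probe sets and each array left out. The number of arrays limits the precision. Figures were drawn with matplotlib 3.10.9 (Python 3.11.15).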

Additional observations from a re-analysis of the deposited data

How the results depend on the processing

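Counts of called members moved by more than 1.5 times in these cases. For milk formula against sow milk over both sexes (2 as reported) the count was 1 with trended variances, with quantile normalization, with the pool number as a replicate block, with only the diets compared and with the mean of all probe sets, and 1 to 3 with an array left out; EIF4A1 was in each. For soy formula against sow milk (3) it was 5 with array weights, 6 when the dimmest 40% of probe sets were dropped, 6 with a 1.5-fold limit and unadjusted p, and 2 to 7 with an array left out (7 without male soy formula pool 2). Between the formulas it was 0 to 0. In females alone the fit to all 18 arrays gave 0, 1 and 0 in place of 1, 11 and 2 for milk against sow, soy against sow and soy against milk; quantile normalization gave 2 in place of 1 and 0 in place of 2, the replicate block 0 in place of 1 and 0 in place of 2, and trended variances 1 in place of 2. With an array left out these counts were 0 to 2, 7 to 13 and 0 to 3. In males alone the fit to all 18 arrays gave 2 for milk formula and 3 for soy formula against sow milk in place of 0, and trended variances and quantile normalization gave 1 each for soy formula; with an array left out the range was 0 to 1. The sex by diet count for soy formula was 1 with quantile normalization and 0 to 1 with an array left out. The cause of these changes was not tested. No pairing of the samples by pool number was seen, though the labels do not settle it. The block took GARS on milk formula (adjusted p = 0.084) and EIF3A on soy formula (adjusted p = 0.0559) past the threshold to not called, limma.

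Of 41 named values 12 turned sign in at least 1 setting, none of them called, and the cause was not tested. With the mean of all probe sets EIF4EBP2 (0.0092), EIF5A (0.058) and EPRS (0.104) turned on milk formula, and EIF4G1 (0.10) and WARS (0.11) on soy formula. With an array left out the ranges on milk formula were -0.37 to 0.008 for EIF2AK2, -0.15 to 0.0058 for EIF2S1, -0.14 to 0.14 for EIF4EBP2, -0.0531 to 0.14 for EIF4G1 and -0.0488 to 0.0309 for EIF6, and on soy formula -0.12 to 0.0158 for EIF5A, -0.0455 to 0.0115 for EIF6, -0.0281 to 0.19 for SARS and -0.29 to 0.13 for WARS. The members' median difference against sow milk stayed between 0.12 and 0.17 on milk formula and between 0.0625 and 0.14 on soy formula. The scalings moved the median of all probe sets by less than 0.1.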
